A study of Arabidopsis thaliana with 12 samples.

Results

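Histone H3 chaperones are the proteins that carry H3 to DNA and place it in nucleosomes, and 10 Arabidopsis genes that encode them were followed by locus code through 12 RNA-seq libraries of 10-day-old seedlings. The set holds 10 of the 23916 genes in the deposited table, and all 10 passed the filter on low values (TPM of at least 1 in at least 3 libraries, met by 19984 genes). They are HIRA (AT3G44530), UBN1 (AT1G21610), UBN2 (AT1G77310) and ATRX (AT1G08600), FAS1 (AT1G65470) and FAS2 (AT5G64630), ASF1A (AT1G66740) and ASF1B (AT5G38110), and SPT16 (AT4G10710) and SSRP1 (AT3G28730). The rule names the genes by locus code and sets no threshold on a measured value, but the set was put together with earlier results of these libraries known.

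There were 4 genotypes with 3 libraries each. Col is the wild type. T31A and K36A are each labelled as an H3.3 knockout, h3.3ko, that carries HTR5, a gene for H3.3, with alanine in place of threonine 31 or of lysine 36. The mutant efs is affected in EFS, also called SDG8, a methyltransferase of H3 lysine 36, and the labels do not give its lesion. Seedlings of all groups grew at 22 °C in 16 h of light and 8 h of dark. In T31A and K36A the residue change and the knockout background cannot be told apart, because a knockout rescued with unmutated HTR5 was not analysed here. HTR8, another H3.3 gene, had 130 ± 19.8 TPM in Col, 16.5 ± 3.52 in T31A and 20.7 ± 2.31 in K36A (SD, n = 3). HTR4, also for H3.3, had 276 ± 37.4, 192 ± 9.05 and 167 ± 10.7 (SD, n = 3). The label h3.3ko gives neither the genes disrupted nor the lesions, so these levels are no check of it. The 3 contrasts with Col share the same Col libraries. Whether the 3 libraries of each group are separate cultures is not labelled, so the p-values reflect library-to-library spread that may be technical only.

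Plants, like animals, deposit H3.1 and H3.3 by separate routes. The HIRA complex, with the ubinuclein proteins UBN1 and UBN2, and ATRX place H3.3 outside replication, while chromatin assembly factor CAF-1, which contains FAS1 and FAS2, places H3.1 behind the replication fork. ASF1A and ASF1B hand H3-H4 dimers to both routes, and SPT16 and SSRP1 form FACT, which loosens and restores nucleosomes as RNA polymerase passes.

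The 250 bases before the annotated starts of FAS1, FAS2 and ASF1B are shown in gene orientation, from the RefSeq annotation of TAIR10.1. Each of these genes passed a contrast as deposited, FAS2 only in K36A against efs. ASF1A also passed there and is not shown. SPT16, not shown either, passed in K36A against Col only under other settings. The submitters' processing notes name TAIR10. With the gene spans of TAIR10.1, at least 99.9784% of the values checked in each library came out as whole reads within a tolerance of 0.02 reads. Values at 0, without a span or above 2000 reads, such as SPT16 in T31A replicate 1 (3105 reads), were not checked. Capitals in FAS1 (chr1:24324092-24324341, minus strand) and FAS2 (chr5:25832915-25833164, plus strand) mark words bound by E2F factors, regulators of S-phase genes. Capitals in ASF1B (chr5:15208108-15208357, plus strand) mark site II words, which are common before genes active in dividing cells. FAS1 also holds 2 site II words, left in lower case, and the window of SPT16 holds 4.
FAS1: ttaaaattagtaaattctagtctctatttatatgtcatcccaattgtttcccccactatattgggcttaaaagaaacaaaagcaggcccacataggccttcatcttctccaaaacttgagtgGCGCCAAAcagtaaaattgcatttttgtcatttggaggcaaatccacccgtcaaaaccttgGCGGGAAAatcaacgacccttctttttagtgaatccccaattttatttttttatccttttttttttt
FAS2: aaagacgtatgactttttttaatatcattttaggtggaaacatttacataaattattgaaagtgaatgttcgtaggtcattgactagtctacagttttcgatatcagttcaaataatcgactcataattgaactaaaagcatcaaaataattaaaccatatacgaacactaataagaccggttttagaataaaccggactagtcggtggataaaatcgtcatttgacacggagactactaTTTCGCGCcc
ASF1B: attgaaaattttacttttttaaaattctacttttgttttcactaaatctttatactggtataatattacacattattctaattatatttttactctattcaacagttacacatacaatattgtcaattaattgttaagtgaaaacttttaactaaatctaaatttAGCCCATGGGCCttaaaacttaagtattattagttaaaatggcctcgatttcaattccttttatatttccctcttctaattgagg

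The E2F words searched were TTTCCCGC, TTTGGCGC, TTTCGCGC and TTTGCCGC on both strands. They occurred in the 250-base window of 387 of 27443 protein-coding genes (1.41%) and of 3 of the 10 chaperone genes. FAS1 held TTTGGCGC and TTTCCCGC, whose upstream ends lay 128 and 67 bases before the start, both on the reverse strand. FAS2 held TTTCGCGC with its upstream end 10 bases before the start. UBN1 held TTTCGCGC as well, but its window lies inside the neighbouring gene PTAC6 (AT1G21600) and is not shown. Site II words (TGGGCC or TGGGCT, either strand) stood before 19.2% of all genes and before FAS1, ASF1B and SPT16, and the pair in ASF1B adjoin each other. The telo-box word AAACCCTA stood before 4.49% of all genes and before 0 of the 10. A match describes these letters only.

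The FACT genes had the highest exon-based levels and UBN2 and FAS2 the lowest. By reads per kilobase of exon, scaled to library size, the mean over 12 libraries followed the order SSRP1, SPT16, UBN1, ATRX, ASF1A, HIRA, ASF1B, FAS1, FAS2, UBN2. Neighbours from SSRP1 down to HIRA kept that order in 12 of 12 libraries, as did FAS1 over FAS2. HIRA exceeded ASF1B in only 7 of 12 libraries and FAS2 exceeded UBN2 in 7 of 12, so these pairs did not differ beyond their spread. ASF1B exceeded FAS1 in 11 of 12. Each chaperone gene collected 94 (FAS2) to 3105 (SPT16) recovered reads per library, out of 17601179 to 34051090 reads.

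**Figure D1:**
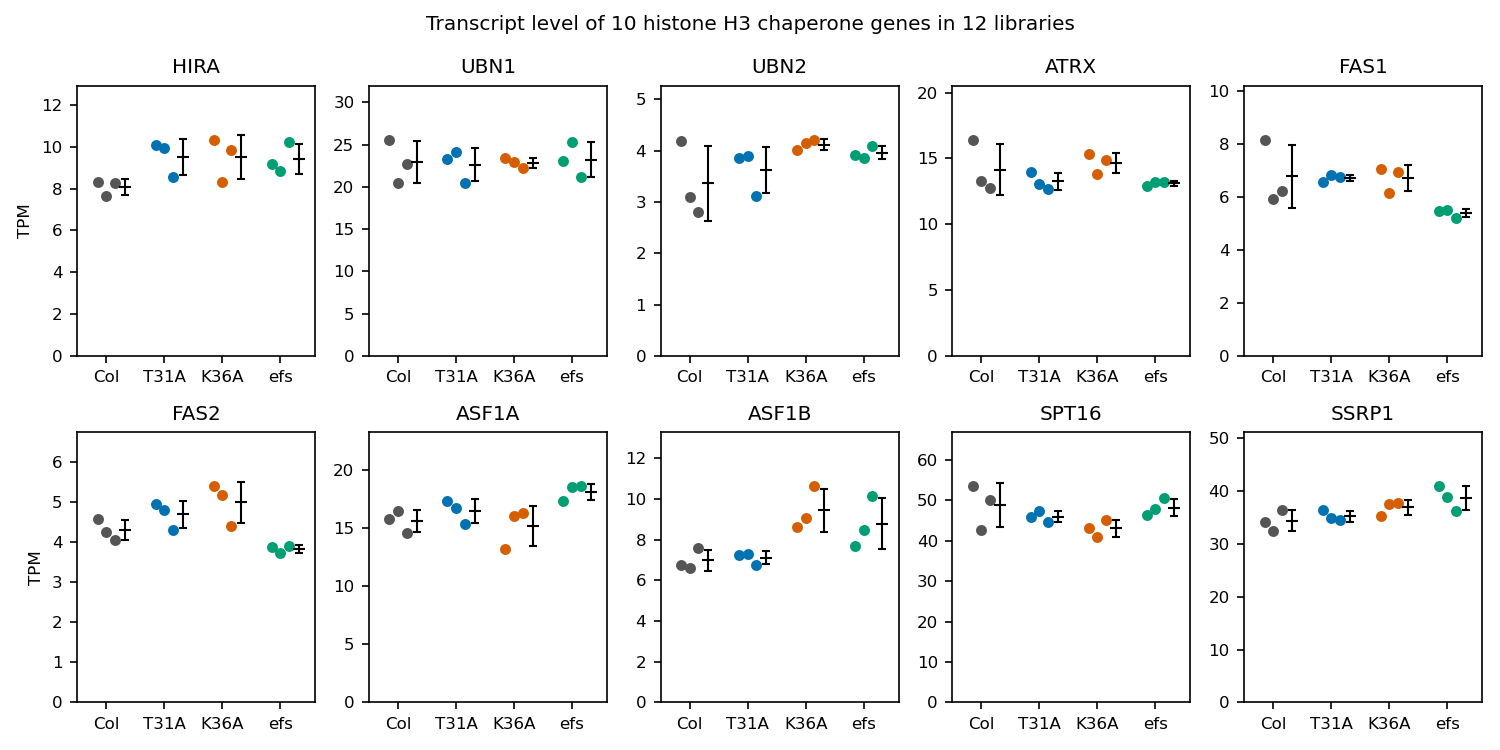
Transcript level (TPM, linear axis from 0, scaled separately for each gene) of the 10 chaperone genes in every library. Dots are libraries 1 to 3 from left to right within a genotype, and the bar beside them is the mean with its SD (n = 3). The ratio of the highest to the lowest genotype mean ran from 1.03 for UBN1 to 1.35 for ASF1B.

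Few of the 10 genes differed from Col in any mutant. In T31A, 0 of 10 differed from Col at an adjusted p under 0.05 (limma over all 19984 genes, Benjamini-Hochberg), while 26.8% of all tested genes did, and 1 of 10, HIRA, had an unadjusted p under 0.05. In K36A, 1 of 10 differed (ASF1B, higher) beside 31.5% of all genes. In efs, 2 of 10 differed (ASF1B higher, FAS1 lower) beside 48.8%. Among the 13014 genes whose mean TPM lay between those of UBN2 and SPT16, the lowest and highest of the 10, the shares were 25.7%, 30.3% and 48.4%.

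Between mutants, 1 of 10 differed for T31A against K36A (28.2% of all genes), 0 of 10 for T31A against efs (39.1%, with 3 of 10 at an unadjusted p under 0.05) and 2 of 10 for K36A against efs (37.4%).

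Sizes were small too. For T31A, K36A and efs against Col, the 10 had median absolute log2 differences of 0.08, 0.14 and 0.18, beside 0.17, 0.18 and 0.26 over all tested genes. Differences were taken after adding 1 to each TPM, which shrinks those of weakly expressed genes. The 95% intervals give a bound: with a pseudocount of 0.1, which shrinks less, the 30 intervals against Col ran from 0.674-fold (FAS1 in efs) to 1.60-fold (ASF1B in K36A). Summed over the 10 genes, TPM was 165 ± 12.1 (Col), 165 ± 7.23 (T31A), 167 ± 4.37 (K36A) and 173 ± 1.84 (efs) (SD, n = 3). In bulk seedlings, fewer cells of a type and less RNA per cell cannot be told apart.

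**Figure D2:**
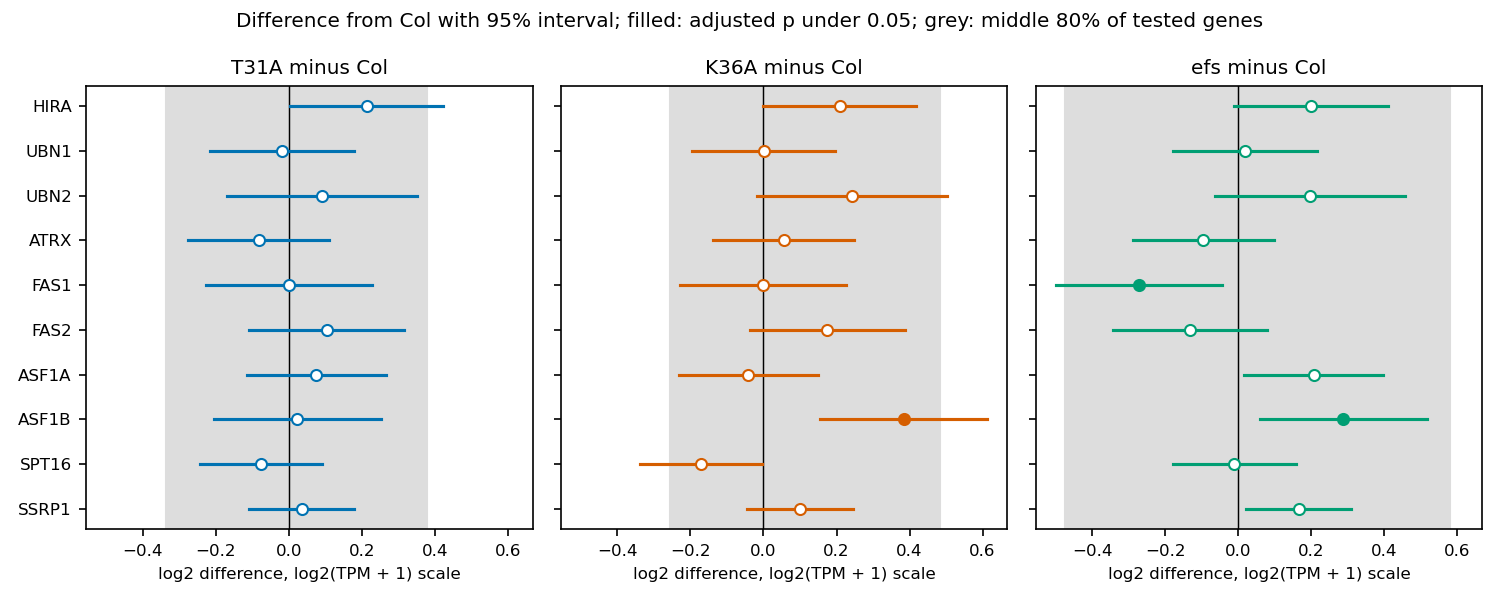
Log2 difference from Col (x axis, log2(TPM + 1) scale) of each chaperone gene in T31A, K36A and efs, with its 95% interval from limma. Filled points have an adjusted p under 0.05 and the grey band spans the 10th to 90th percentile of all 19984 tested genes. Every point lies inside its band, and the filled ones are ASF1B in K36A and in efs and FAS1 in efs.

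Of the chaperones for H3.3, HIRA lay above Col in every mutant library as deposited, and its 3 contrasts with Col did not pass. HIRA, the scaffold of its complex, had 8.31, 7.63 and 8.25 TPM in Col. The mutant libraries held 10.1, 9.96 and 8.54 (T31A), 10.3, 8.31 and 9.87 (K36A), and 9.17, 8.84 and 10.2 (efs). The lowest mutant library, K36A replicate 2, lay only just above the highest Col library. The log2 differences were 0.21, 0.21 and 0.20, with adjusted p of 0.125, 0.122 and 0.109 from limma. Groups do not overlap for 39.8%, 39.6% and 54.8% of all tested genes in these contrasts. Without K36A replicate 2 the K36A difference was 0.29 with an adjusted p of 0.0444 from limma. With libraries scaled by median-of-ratios factors, which centre the median gene near 0, the differences were 0.17, 0.11 and 0.10 (adjusted p of 0.179, 0.372 and 0.386, limma), and K36A and efs then overlapped Col.

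UBN1 and UBN2 are ubinuclein subunits that bind H3.3 with HIRA. UBN1 was level in all genotypes, at 22.9 ± 2.53 TPM (Col), 22.6 ± 1.95 (T31A), 22.9 ± 0.585 (K36A) and 23.2 ± 2.07 (efs) (SD, n = 3). Reads within its 18-base overlap with PTAC6 could fall to either gene, since the sources used here do not say how shared reads or strand were handled.

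UBN2 read 4.18, 3.09 and 2.81 TPM (Col), 3.85, 3.90 and 3.11 (T31A), 4.0, 4.14 and 4.21 (K36A), and 3.92, 3.85 and 4.09 (efs). Col replicate 1 lay among the K36A values, and the other two Col libraries below all K36A and efs libraries. The log2 differences were 0.24 in K36A (adjusted p = 0.144, limma) and 0.20 in efs (adjusted p = 0.197, limma). Without Col replicate 1 they were 0.37 (adjusted p = 0.0195) and 0.33 (adjusted p = 0.0259), both by limma. They shrank to 0.16 and 0.11 with median-of-ratios factors (adjusted p of 0.298 and 0.436) and to 0.09 and 0.11 with quantile normalization (0.563 and 0.455), by limma.

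UBN2 lies beside EFS on chromosome 1 and overlaps MEI1 by 5 bases. EFS did not differ from Col in efs (log2 difference -0.01, adjusted p = 0.974, limma), and its level is no check of the label because the lesion is not given. MEI1 was 0.33 higher in efs (adjusted p = 0.00774, limma).

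ATRX, a chromatin remodeller that places H3.3, was 14.2 ± 1.96 TPM (Col), 13.2 ± 0.658 (T31A), 14.7 ± 0.763 (K36A) and 13.1 ± 0.174 (efs) (SD, n = 3). None of its 3 contrasts with Col passed the test, with adjusted p of 0.544, 0.679 and 0.4 from limma. Its highest value, 16.4 TPM, was Col replicate 1. That library was also the highest of the 12 for UBN1, FAS1 and SPT16.

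Of the CAF-1 genes, FAS1 was lower in efs and FAS2 lay lowest there. FAS1, the large subunit, had 8.14, 5.93 and 6.22 TPM (Col), 6.57, 6.81 and 6.73 (T31A), 7.05, 6.15 and 6.94 (K36A), and 5.47, 5.49 and 5.20 (efs). All efs libraries lay below the other 9, where groups do not overlap for 54.8% (Col), 56.8% (T31A) and 51.3% (K36A) of all genes. The efs difference was -0.27 on the log2 scale (SE 0.11, adjusted p = 0.0474, limma). Without Col replicate 1 it was -0.15 with an adjusted p of 0.194, and without efs replicate 1, 2 or 3 the adjusted p was 0.0854, 0.0813 and 0.121, all from limma. The call was also lost with no filter on low values (adjusted p = 0.062) and with only the Col and efs libraries fitted (0.105). It was larger with median-of-ratios factors (-0.36, adjusted p = 0.00554) and with quantile normalization (-0.35, adjusted p = 0.00721), by limma. T31A exceeded efs by 0.27 and missed the threshold as deposited (adjusted p = 0.057), and passed under these scalings (0.0133 and 0.0142), by limma. In T31A and K36A the log2 difference of FAS1 was 0.00 to 2 decimals.

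FAS2, the middle subunit, had 4.58, 4.26 and 4.07 TPM (Col), 4.97, 4.82 and 4.32 (T31A), 5.40, 5.18 and 4.41 (K36A), and 3.88, 3.73 and 3.90 (efs). Here too the efs libraries lay below the other 9. Groups did not overlap for 54.8% of all genes in efs against Col, 56.8% in T31A against efs and 51.3% in K36A against efs. Against Col the efs difference was -0.13 (adjusted p = 0.286, limma), and -0.22 both with median-of-ratios factors (adjusted p = 0.0692) and with quantile normalization (0.0686). T31A exceeded efs by 0.24 (adjusted p = 0.074, limma), and passed under those scalings (0.28, adjusted p = 0.0263, and 0.31, adjusted p = 0.0163). K36A exceeded efs by 0.31 (SE 0.10, adjusted p = 0.0246, limma). That call was lost without K36A replicate 1 (adjusted p = 0.0988), K36A replicate 2 (0.0694), or efs replicate 1, 2 or 3 (0.053, 0.0717 and 0.0522), all from limma.

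Most genes of a DNA replication list were lower in efs. In a list of 16 (helicase subunits MCM2 to MCM7, sliding clamps, polymerase epsilon and alpha subunits, ribonucleotide reductase and licensing factors), 11 were lower in efs and 0 higher, with a median log2 difference of -0.41 beside 0.12 over all genes. Over all genes 31.4% were higher and 17.4% lower in efs. The list had 2 higher and 0 lower in T31A (15.7% and 11.1% of all genes) and 2 higher and 0 lower in K36A (22.6% and 8.9%). The T31A count was 1 without Col replicate 2 or without any 1 of the T31A replicates, and quantile normalization added MCM5 as lower (-0.23, adjusted p = 0.0438, limma). The K36A count was 1 without Col replicate 2 or K36A replicate 3, and 0 with median-of-ratios factors or quantile normalization. TSO2, a small subunit of ribonucleotide reductase, fell by 0.83 on the log2 scale in efs (adjusted p = 6.71e-06, limma). MCM3, MCM4, MCM5 and MCM7 fell by 0.56, 0.56, 0.53 and 0.56 there. In T31A TSO2 was 0.70 higher (adjusted p = 9.13e-05, limma).

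E2F words stood before 6 of the 16 replication genes (MCM2 to MCM6 and ICU2). All 6 were lower in efs, as were 5 of the 10 without one. Over all genes 17.4% were lower in efs, and the share among all genes with an E2F word was not computed. Site II words stood before 9 of the 16, including all 6 of these, so E2F and site II words cannot be separated here. TSO2, which fell most, held neither. Of the 3 chaperone genes with an E2F word, FAS1, which also holds site II words, was lower. FAS2 was -0.13 without passing the test, and UBN1 was 0.02. The median log2 difference in efs was -0.54 for the 6 replication genes and -0.13 for the 3 chaperone genes.

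**Figure D3:**
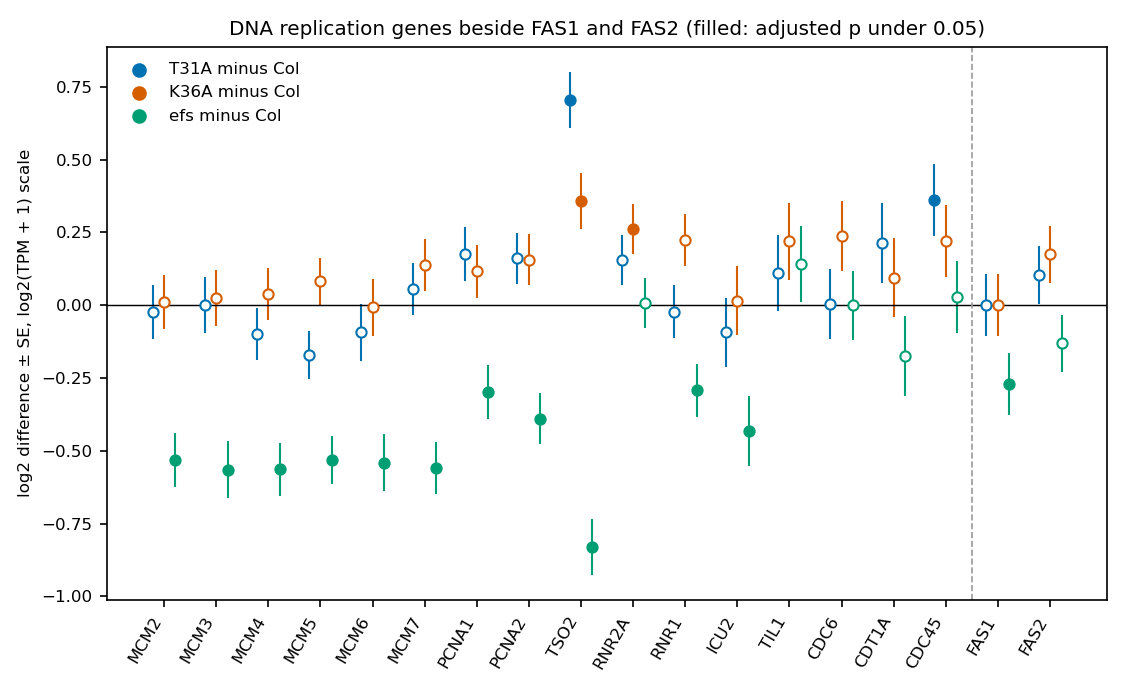
Log2 difference from Col ± SE (y axis, log2(TPM + 1) scale, limma) for 16 DNA replication genes and, right of the dashed line, FAS1 and FAS2. Colours are genotypes and filled points have an adjusted p under 0.05. In efs 11 replication genes lie below 0 and filled, down to -0.83 for TSO2, while FAS1 is at -0.27 and FAS2 at -0.13.

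ASF1B, a paralog of ASF1A, was the only gene of the 10 that passed the test against Col in both K36A and efs. It had 6.74, 6.63 and 7.58 TPM (Col), 7.26, 7.32 and 6.74 (T31A), 8.64, 9.05 and 10.6 (K36A), and 7.70, 8.50 and 10.1 (efs). K36A and efs libraries all lay above Col and T31A libraries. Groups do not overlap for 39.6% of all genes in K36A against Col, 54.8% in efs against Col and 56.8% in T31A against efs. The log2 difference from Col was 0.38 in K36A (SE 0.11, adjusted p = 0.0141, limma) and 0.29 in efs (SE 0.11, adjusted p = 0.0378, limma). T31A did not pass (0.02, adjusted p = 0.897, limma), and tested directly T31A lay below K36A by 0.36 (adjusted p = 0.0207, limma), where the groups did not overlap for 44.8% of all genes.

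With median-of-ratios factors the ASF1B differences shrank to 0.29 in K36A (adjusted p = 0.0515) and 0.19 in efs (adjusted p = 0.154), both by limma, and efs then overlapped Col. T31A below K36A passed with those factors (-0.31, adjusted p = 0.0388, limma) but not with quantile normalization (-0.29, adjusted p = 0.0552, limma). Against Col, quantile normalization gave 0.28 in K36A (adjusted p = 0.0641) and 0.20 in efs (0.146), by limma. As deposited, the median over all genes was 0.09 in K36A and 0.12 in efs. The K36A call was also lost without K36A replicate 3 (adjusted p = 0.0645, limma), as was the direct contrast (adjusted p = 0.0891, limma), which fell as well without T31A replicate 3 (0.0743). The efs call was lost with no filter on low values (adjusted p = 0.052), with only Col and efs fitted (0.0727), and without Col replicate 1, Col replicate 2, efs replicate 2 or efs replicate 3 (adjusted p of 0.0741, 0.106, 0.0637 and 0.182, limma).

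ASF1A read 15.8, 16.5 and 14.6 TPM (Col), 17.4, 16.8 and 15.4 (T31A), 13.2, 16.0 and 16.4 (K36A), and 17.4, 18.5 and 18.6 (efs). The efs libraries lay above Col and K36A, where groups do not overlap for 54.8% and 51.3% of all genes, and reached into T31A. Against Col efs was 0.21 higher and missed the threshold (adjusted p = 0.0669, limma). It was 0.10 with median-of-ratios factors (adjusted p = 0.361) and 0.12 with quantile normalization (0.27), by limma. K36A lay below efs by 0.25 (adjusted p = 0.0398, limma), a call lost without K36A replicate 1 (adjusted p = 0.197) or efs replicate 1, 2 or 3 (0.0532, 0.107 and 0.11), or with only K36A and efs fitted (0.0503).

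Within a library, the exon-based ratio of ASF1B to ASF1A was 0.555 ± 0.0765 (Col), 0.532 ± 0.0143 (T31A), 0.769 ± 0.0615 (K36A) and 0.596 ± 0.0676 (efs) (SD, n = 3). The K36A libraries, at 0.698 to 0.807, lay above the other 9, whose highest was 0.674 in efs. Counting error from the recovered reads averaged 7.69% for ASF1B and 6.87% for ASF1A in K36A, so this gap is small beside it. A ratio within a library does not depend on how libraries are scaled to each other. How often ratios of other gene pairs separate in this way was not computed. UBN2 to UBN1 ran from 0.173 ± 0.0243 in Col to 0.214 ± 0.0106 in K36A, and FAS1 to FAS2 from 1.19 ± 0.173 in K36A to 1.37 ± 0.172 in Col. HIRA to UBN1 was 0.319 ± 0.0224 in Col and 0.380 ± 0.00822 in T31A. Its T31A libraries, at 0.373 to 0.389, lay above those of Col, at 0.293 to 0.336.

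**Figure D4:**
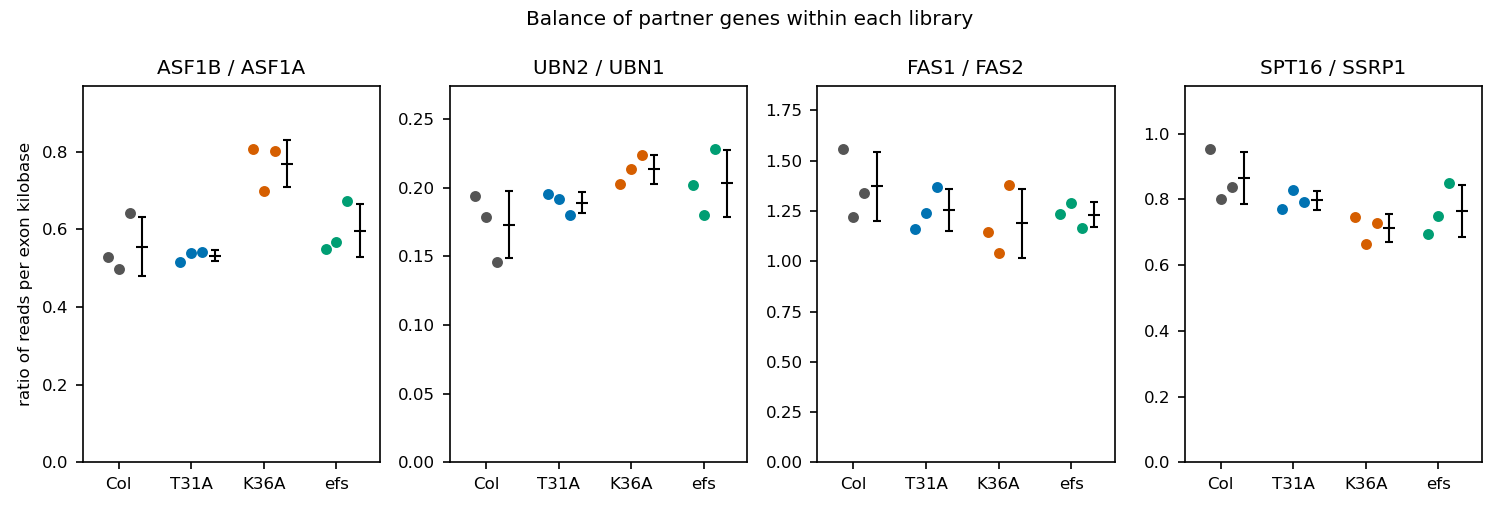
Ratio of exon-based levels of paired chaperone genes in each library (linear axes from 0), with the mean and SD of 3 libraries beside the points. In the ASF1B to ASF1A panel, the K36A libraries, at 0.698 to 0.807, lie above the other 9, by a gap that is small beside the counting error.

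The FACT genes did not pass any contrast with Col as deposited. SPT16, the large FACT subunit, had 53.4, 42.8 and 50.1 TPM (Col), 45.9, 47.4 and 44.6 (T31A), 43.2, 40.9 and 45.1 (K36A), and 46.4, 47.8 and 50.5 (efs). K36A held the lowest value but overlapped Col (-0.17, adjusted p = 0.112, limma). It passed with median-of-ratios factors (-0.28, adjusted p = 0.00646), with quantile normalization (-0.25, adjusted p = 0.0177) and without Col replicate 2 (-0.26, adjusted p = 0.0161), all by limma.

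SSRP1, the small subunit, read 34.2, 32.5 and 36.5 TPM (Col), 36.4, 34.9 and 34.4 (T31A), 35.4, 37.6 and 37.8 (K36A), and 40.9, 39.0 and 36.3 (efs). Col and efs overlapped by a narrow margin, and the efs difference of 0.17 just missed the threshold (adjusted p = 0.0547, limma). It passed without Col replicate 3 (adjusted p = 0.034) or efs replicate 3 (0.0371) and with no filter on low values (0.0494), by limma. It shrank to 0.06 with median-of-ratios factors (adjusted p = 0.505) and 0.09 with quantile normalization (0.305), by limma. SSRP1 overlaps CYP81D11 by 32 bases. The exon-based ratio of SPT16 to SSRP1 was 0.865 ± 0.079 in Col and 0.713 ± 0.0421 in K36A (SD, n = 3). The 3 K36A libraries, at 0.665 to 0.745, lay below the 3 of Col, at 0.803 to 0.954. The share of other gene pairs whose ratios separate so was not computed.

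Among other histone chaperones and elongation partners, NASP and MSI1 were higher in every mutant as deposited. Of 21 such genes, 4 were higher in T31A and 0 lower, 4 higher and 0 lower in K36A, and 8 higher and 1 lower in efs, or 19.0%, 19.0% and 38.1% higher, beside 15.7%, 22.6% and 31.4% of all genes. The K36A count was 2 without Col replicate 3, K36A replicate 2 or K36A replicate 3, and 1 with only Col and K36A fitted. The list had median log2 differences of 0.06, 0.10 and 0.12 beside 0.04, 0.09 and 0.12 over all genes. NASP, which binds H3, was higher by 0.36, 0.39 and 0.49, and MSI1, the small CAF-1 subunit that also serves other complexes, by 0.40, 0.29 and 0.34, in T31A, K36A and efs, each with an adjusted p under 0.05 from limma. With median-of-ratios factors NASP passed in all 3 mutants and MSI1 missed in K36A (adjusted p = 0.0709, limma). NAP1;1 and NRP1, chaperones of H2A-H2B, and VIP3, of the Paf1 complex, were 0.37, 0.41 and 0.37 higher in efs. The gene lower in efs was SPT4-1, at 1.58 ± 0.597 TPM beside 3.11 ± 0.354 in Col (SD, n = 3). In T31A SPT4-1 was 0.66 higher (adjusted p = 0.00795, limma). With median-of-ratios factors SPT4-1 passed in efs (-0.77, adjusted p = 0.00165) and in T31A (0.62, adjusted p = 0.0121), by limma. With median-of-ratios factors 1 of 3 calls in K36A and 5 of 9 in efs were higher, so the balance of directions depends on it.

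The genes for H3 itself had these differences from Col. HTR5 was higher by 0.99 in T31A, 0.85 in K36A and 0.27 in efs, though the efs difference missed the threshold with median-of-ratios factors (adjusted p = 0.201, limma). In T31A and K36A, HTR5 reads can come from the mutated HTR5 copy that these lines carry, so they do not measure the native gene alone. HTR8 fell by 2.91 in T31A and by 2.58 in K36A and was 0.76 higher in efs. HTR4 fell by 0.51 in T31A and by 0.72 in K36A. Of the H3.1 genes, HTR1, HTR2, HTR9 and HTR13 were higher in T31A by 0.67, 0.87, 0.70 and 1.17 and in K36A by 0.40, 0.67, 0.40 and 0.58, and HTR3 did not pass. In efs 0 of the 5 H3.1 genes passed as deposited (limma, 1 at an unadjusted p under 0.05), while with median-of-ratios factors HTR1 and HTR2 were lower there by limma (-0.30, adjusted p = 0.0309, and -0.22, adjusted p = 0.0458). HTR genes are near-identical copies, so reads shared among them make these values uncertain.

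Summed root marker TPM was 156 to 250 (Col), 153 to 165 (T31A), 259 to 306 (K36A) and 219 to 237 (efs), over 8 markers with 0 values at 0. Of these 8, 3 were lower in T31A, 5 higher in K36A and 2 higher in efs. Those lower in T31A were COBL9, EXPA7 and PRP3, while SCR, WER and PIN2 were 0.15, 0.26 and 0.18 higher there without passing. The sums weigh PRP3 and CASP1 most, with means of 65.2 and 53.1 TPM in Col. The shares of all genes were 11.1% lower, 22.6% higher and 31.4% higher. With median-of-ratios factors only PIN2 of the root markers passed in efs. Summed TPM of 6 green-tissue markers, again with 0 values at 0, was 51065 to 56746 (Col), 46395 to 51329 (T31A), 41427 to 49042 (K36A) and 40447 to 42186 (efs). Of these 6, 2 were lower in T31A, 4 in K36A and 5 in efs, beside 11.1%, 8.9% and 17.4% of all genes. With quantile normalization only LHCB2.1 of them passed in K36A and in efs, while with median-of-ratios factors all 6 were lower in efs. The part of either marker set in the chaperone differences was not tested.

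For each chaperone gene, the gene of mean TPM at least 5 with the highest Pearson r over the 12 libraries was recorded as a description of these libraries, which share genotype and depth. ASF1B was closest to AT3G60520 (r = 0.955), FAS1 to AT3G54760 (r = 0.964), FAS2 to RP2 (r = 0.913) and UBN2 to LTA3 (r = 0.938). The lowest of the 10 was 0.831, for UBN1 with AT3G23900. Among the chaperone genes themselves, 34 of 45 pairs were positive, with a median r of 0.15 and a range from -0.59 (FAS1 with ASF1A) to 0.72 (ATRX with FAS1).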

How the data were processed

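Total RNA of 12 seedling libraries was sequenced, and per the submitters' processing notes the authors ran DESeq2 1.26.0, HISAT2 2.1.10 and fastp 0.20.1, with TAIR10 as build. Read counter, strand and shared-read handling are not given there. The deposited values are TPM, although their columns are headed as gene counts: they have one common sum and are scaled by gene span with introns. Whole reads were recovered from the spans of 23734 genes (182 had none), and exon-based levels divide these by exon length.

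Log2(TPM + 1) was fitted with limma 3.58.1 (R 4.3.3) over 12 libraries and 4 groups, for 6 contrasts, with Benjamini-Hochberg adjustment over 19984 genes. The fit was tested on simulated data. The 10 genes and all lists were chosen with earlier results of these data known. Named genes were the 10, the histone genes, the neighbours of UBN2 and some markers. Of the partner and replication lists, they were mainly up to 5 with the smallest adjusted p and any passing in all 3 contrasts with Col. Alternatives changed the pseudocount, filter, scaling, groups fitted, replicate block and libraries. The main fit did not use the replicate numbers to pair samples.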

Additional observations from a re-analysis of the deposited data

Results flagged for a closer look

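Differences between mutants were tested directly, and 3 chaperone results passed. These were 1 of 10 for T31A against K36A, 0 of 10 for T31A against efs and 2 of 10 for K36A against efs. Of all genes, 28.2%, 39.1% and 37.4% passed. With only 10 chaperone genes, whether their shares differ from these was not tested. Groups do not overlap for 44.8% of all genes in T31A against K36A and 51.3% in K36A against efs. ASF1B was lower in T31A than in K36A (log2 difference -0.36, adjusted p = 0.0207, limma), with 3 of 3 T31A libraries below all K36A libraries. FAS2 was higher in K36A than in efs (0.31, adjusted p = 0.0246, limma), with 3 of 3 libraries above. ASF1A was lower in K36A than in efs (-0.25, adjusted p = 0.0398, limma), with 3 of 3 libraries below. Each call was lost when 1 of several single libraries was left out, as given with the gene, and the ASF1B call also with quantile normalization.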

How the results depend on the processing

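Across 60 chaperone differences and 888 alternatives, 834 stayed on the same side of the threshold. Another 36 lost it, 18 gained it and 0 called values reversed. Only a called difference can lose the threshold, so the total overstates how stable the calls were. ASF1B lost it in 4 of 15 alternatives for K36A minus Col, 9 of 15 for efs minus Col and 4 of 15 for T31A minus K36A. FAS1 lost it in 7 of 15 for efs minus Col. For K36A minus efs, FAS2 lost it in 6 of 14 and ASF1A in 6 of 15. With each library left out in turn, the number of the 10 that passed was 0 to 0 for T31A minus Col, 0 to 2 for K36A minus Col, 0 to 3 for efs minus Col, 0 to 1 for T31A minus K36A, 0 to 1 for T31A minus efs and 0 to 2 for K36A minus efs. In efs minus Col, 1 of the 10 passed without a filter on low values, 1 with median-of-ratios factors, 1 with quantile normalization and 0 with 2 groups only. T31A minus K36A had 0 with quantile normalization. T31A minus efs had 2 with median-of-ratios factors, 2 with quantile normalization and 1 with 2 groups only. K36A minus efs had 1 at a mean TPM of at least 5, where FAS2 was not tested. At a fold of at least 1.5, 0 of the 10 passed in any contrast, and over all genes 1513, 1791, 3464, 1988, 2821 and 2722 did, in the order T31A, K36A and efs minus Col, T31A minus K36A, T31A minus efs and K36A minus efs. With 2 groups only, 4137 genes passed in K36A minus Col. The cause of these changes was not tested. Replicate numbers were shared across genotypes. Deviations were correlated above 0.1 in 6 of 18 same-number pairs of libraries (r from -0.24 to 0.36). For different-number pairs this held in 8 of 36 (r from -0.34 to 0.32), which does not settle whether the numbers pair samples. With the replicate block the counts of the 10 that passed were 0, 1, 2, 1, 0 and 2, as without it. As few as 94 reads for FAS2 in a library limit what can be seen for the lowest genes.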
